A study of Mus musculus with 6 samples.

Results

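Transcripts of oxidative phosphorylation (OXPHOS) were followed in activated mouse regulatory T cells (Treg cells) as 102 protein-coding genes of the 47069 Ensembl genes found in both deposited tables. They were chosen by symbol alone. A symbol had to begin with mt-, Ndufa, Ndufb, Ndufc, Ndufs, Ndufv, Sdh, Uqcr, Cox4 to Cox8 or Atp5, and Ndufaf assembly factors and pseudogenes were left out. Of the 102 genes, 13 lie in the mitochondrial genome and 89 in the nucleus. The mitochondrial genes fall into complex I (7), complex III (1), complex IV (3) and complex V (2). The nuclear genes fall into complex I (38), complex II (8), complex III (8), complex IV (18) and complex V (17). The symbols also admit the 4 complex II assembly factors Sdhaf1 to Sdhaf4 and leave out Cyc1, the cytochrome c1 of complex III. Complexes were assigned by symbol, so Ndufa4 counts in complex I and Atp5s in complex V.

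The Treg cells, CD4 T cells defined by the transcription factor Foxp3, came from lymph nodes and spleen and were sorted as CD4+GFP+CD62Lhigh cells. Libraries labelled cKO came from Foxp3CreNoc4lfl/fl mice, with both Noc4l alleles floxed, and libraries labelled Het from Foxp3CreNoc4l+/fl mice, with 1 floxed allele, by the genotype in each library's own label. The extraction protocol in the labels writes the same alleles, 1 of them floxed, for both genotypes. Cre expressed from Foxp3 was thus shared by all libraries, as was activation with Dynabeads, and no library came from mice without Cre or from resting cells. There were 2 libraries labelled cKO (replicates 2 and 4) and 2 labelled Het (replicates 1 and 3) at 72 h, and 1 labelled cKO (replicate 2) and 1 labelled Het (replicate 1) at 48 h. The labels give neither the age of the mice nor whether a library is 1 animal or a pool, and every p-value therefore measures a spread between libraries that may be technical. Levels are FPKM, fragments counted per gene, divided by gene length and by the library's total, in a first deposited table with replicates 1 and 2 at both times and another with replicates 3 and 4 at 72 h. Below, cKO 2, cKO 4, Het 1 and Het 3 stand for the libraries with these labels and replicate numbers.

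OXPHOS couples the transfer of electrons from NADH (complex I) and succinate (complex II) through ubiquinone, complex III and cytochrome c to oxygen at complex IV with the pumping of protons, and complex V makes ATP from the proton gradient. Complexes I, III, IV and V join core subunits translated inside the mitochondrion with subunits made in the cytosol and imported, while complex II is wholly nuclear encoded. The mitochondrial mRNAs are cut from long transcripts of both strands of a small circular genome. Treg cells are known to rely on mitochondrial respiration for suppression.

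Estimated depth was 16.5 to 28.8 M fragments per library. Noc4l, the floxed gene, went against the labels: it had 81.7 FPKM in cKO 2 against 48.8 in Het 1 and 58.1 in cKO 4 against 40.8 in Het 3 at 72 h, and 124 in cKO 2 against 99.1 in Het 1 at 48 h. Each direction below is therefore a direction between libraries so labelled, and which exons are floxed is not given in the sources used here. The summed FPKM of 7 Treg and T cell markers lay between 2851 and 3603 in libraries labelled cKO and between 2921 and 3309 in libraries labelled Het. Markers of other cells differed between the libraries: the sum of 10 neutrophil and myeloid markers was 383.7 (cKO 2) and 85.7 (cKO 4) against 43.5 (Het 1) and 24.5 (Het 3) at 72 h, and 444.6 (cKO 2) against 47.1 (Het 1) at 48 h. Of these 10 markers, 0 were at 0 in cKO 2 at either time and 6 in cKO 4, against 5 in Het 1 and 7 in Het 3 at 72 h and 3 in Het 1 at 48 h. The defining S100a8, S100a9 and Lyz2 were at 0 in cKO 4 and Het 3. Ltf, another of the 10, had 75.3 FPKM in cKO 4, 21.4 in Het 3 and 38.2 in Het 1 at 72 h. The sum of 6 CD8 T and NK cell markers was 295.9 and 119.1 in cKO 2 and cKO 4, against 79.9 and 14.2 in Het 1 and Het 3 at 72 h. In cKO 4 against Het 3, Nkg7 had 89.1 against 6.48 FPKM and Gzma 22.8 against 1.92. There Cd8a had 2.24 against 1.01, Cd8b1 4.47 against 4.69, Klrd1 0.453 against 0 and Ncr1 0.123 against 0.0556. In cKO 2 against Het 1, Cd8a had 39.0 against 20.3 and Cd8b1 19.1 against 11.5. The sum of 6 B cell markers at 72 h was 85.7 and 8.81 in cKO 2 and cKO 4, against 14.0 and 9.83 in Het 1 and Het 3. For 6 erythroid markers the sum was 24.6 and 1.45 FPKM, against 27.0 and 5.89, and for 4 nuclear-retained RNAs, read as a sign of RNA quality, 607 and 1071, against 424 and 513. At 48 h the sums in cKO 2 and Het 1 were 42.01 against 29.97 FPKM for CD8 T and NK cell markers, 24.5 against 9.40 for B cell markers, 30.95 against 1.74 for erythroid markers and 327.7 against 330.5 for nuclear-retained RNAs. Their part in the values below was not tested. In bulk RNA, fewer cells of a type and less RNA per cell cannot be told apart. The pairs at 72 h differed in the size of the mitochondrial difference, and results at 72 h are given pair by pair for that reason.

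The mitochondrial genes lay in 2 ranges of level. The genes of complex I subunits mt-Nd1, mt-Nd2, mt-Nd4, mt-Nd5 and mt-Nd6, of cytochrome b (mt-Cytb) and of the catalytic subunit of complex IV (mt-Co1) lay between 234 and 4172 FPKM in all 6 libraries. The genes of the complex I subunit mt-Nd3, of the other core subunits of complex IV (mt-Co2, mt-Co3) and of complex V (mt-Atp6, mt-Atp8) lay between 0.489 and 43.3 FPKM. The complex I gene mt-Nd4l was listed at 0 in every library, where 3 fragments would have given 0.351 to 0.612 FPKM.

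The low range holds the 5 genes whose sequence has a near-complete copy elsewhere in the genome. Of all stretches of 31 bases, 100% of those of mt-Co2, 99.9% of mt-Co3, 99.5% of mt-Atp6, 98.9% of mt-Nd4l and 98.1% of mt-Nd3 also occur in another annotated gene, a pseudogene on chromosome 1 for each. For mt-Nd4 the share was 62.8%, for mt-Co1 63.9%, for mt-Nd5 16.8%, for mt-Nd2 13.5%, for mt-Nd6 7.4%, for mt-Cytb 6.6% and for mt-Nd1 0%. The low gene mt-Atp8 (204 bases) shares only 7.5%, and it overlaps mt-Atp6 on the same strand. How fragments with several positions were counted is not given in the sources used here, and the part of the copies in the low levels was not tested. The copies Gm28437 of mt-Co3 and Gm28438 of mt-Nd3 are shown to let the match be seen, as 60 bases each from GRCm38, mt-Co3 at chrM:8968-9027 (plus strand), Gm28437 at chr1:24613551-24613610 (minus strand), mt-Nd3 at chrM:9459-9518 (plus strand) and Gm28438 at chr1:24613060-24613119 (minus strand). Capitals mark the 1 mismatch, T3C, counted from 1 at the first base of mt-Nd3.
mt-Co3: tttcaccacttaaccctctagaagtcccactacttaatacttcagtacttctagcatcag
Gm28437: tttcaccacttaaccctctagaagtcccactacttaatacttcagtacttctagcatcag
mt-Nd3: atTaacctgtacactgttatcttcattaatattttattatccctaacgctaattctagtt
Gm28438: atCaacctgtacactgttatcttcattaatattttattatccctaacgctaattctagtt
Over their whole aligned length mt-Co3 and Gm28437 were identical in 783 of 783 bases, and mt-Nd3 and Gm28438 differed at 1 of 345. Gm28438 stood at 7.27 to 21.9 FPKM, while the copies of mt-Co2, mt-Co3 and mt-Atp6 stood at 0.369 FPKM or less. Gm10222, the copy of mt-Nd4l, stood at 0.207 to 1.71 FPKM, where mt-Nd4l itself was listed at 0. The genes mt-Nd5 and mt-Nd6 overlap on opposite strands, and without a stated strand setting their fragments cannot be told apart there.

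**Figure D1:**
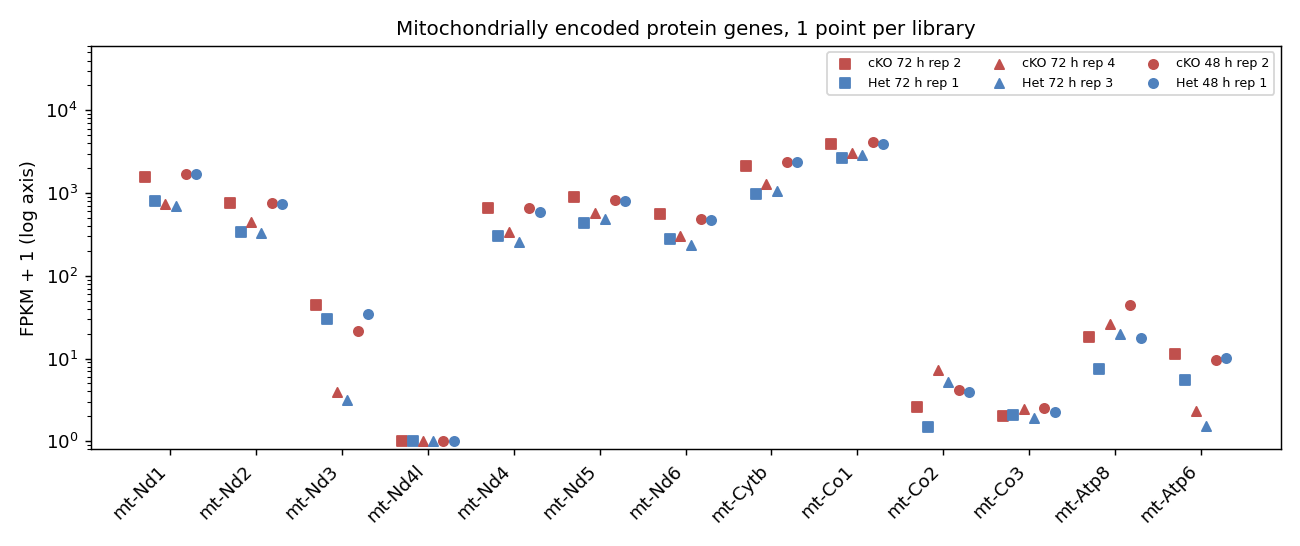
FPKM + 1 on a log axis for each of the 13 mitochondrially encoded genes, 1 point per library (red labelled cKO, blue labelled Het, squares and triangles 72 h, circles 48 h). The high genes lie between 234 and 4172 FPKM and the low ones between 0 and 43.3 FPKM, and the blue square (Het 1 at 72 h) lies below the red square of its pair in 11 of the 12 genes with a value.

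Summed by the genome that encodes them, mitochondrial OXPHOS transcripts differed most within the pair of cKO 2 and Het 1 at 72 h. The mitochondrial genes summed to 10600 FPKM in cKO 2 against 5829 in Het 1 and to 6756 in cKO 4 against 5998 in Het 3 at 72 h, and to 11060 in cKO 2 against 10687 in Het 1 at 48 h. The nuclear genes summed to 13425 FPKM in cKO 2 against 12551 in Het 1 and to 8611 in cKO 4 against 7710 in Het 3 at 72 h, and to 13689 in cKO 2 against 13275 in Het 1 at 48 h. In all 3 pairs both sums were higher in the library labelled cKO. The ratio of the mitochondrial to the nuclear sum, which does not depend on the scaling of a library, was 0.790 in cKO 2 against 0.464 in Het 1 and 0.785 in cKO 4 against 0.778 in Het 3 at 72 h, and 0.808 in cKO 2 against 0.805 in Het 1 at 48 h. The ratio of 5 libraries thus lay within 0.778 to 0.808 and Het 1 at 72 h alone lay below. With mt-Co1, the most abundant mitochondrial gene, left out, Het 1 at 72 h was again the lowest, at 0.252 against 0.399 to 0.507 in the others. The ratio does vary with the nuclear sums, which were lower in the other table. Of all fragments, by estimate, mitochondrial genes made up 1.369% in cKO 2, 0.772% in Het 1, 0.901% in cKO 4 and 0.809% in Het 3 at 72 h. At 48 h they made up 1.427% in cKO 2 and 1.375% in Het 1. By this share the library apart at 72 h was cKO 2, and by the ratio it was Het 1. The tables may have been scaled separately, so sums are compared within a pair, and no test was made of sums, ratios or shares.

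**Figure D2:**
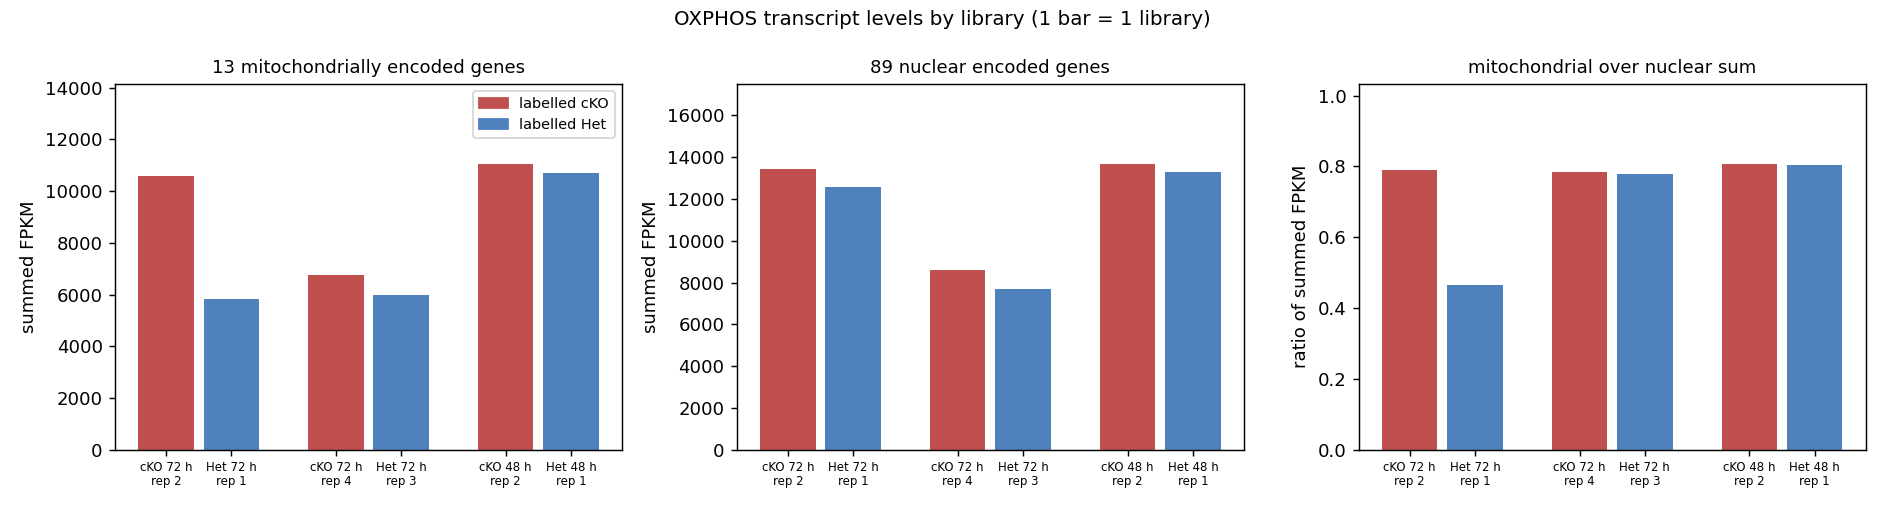
Summed FPKM of the 13 mitochondrially encoded genes (left) and the 89 nuclear encoded genes (middle) and the ratio of the sums (right), 1 bar per library, red labelled cKO and blue labelled Het. The ratio is 0.778 to 0.808 in 5 libraries and 0.464 in Het 1 at 72 h, and the 2 libraries of the other table (cKO 4, Het 3) have the lowest nuclear sums.

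Of the 102 genes, 93 reached a mean of 1 FPKM over the 72 h libraries and were tested there, 12 mitochondrial and 81 nuclear. The genotype at 72 h was compared with a linear model over both pairs that held the table as a term (limma, Benjamini-Hochberg adjusted p over all 12488 genes tested, log2(FPKM + 1) scale). With 2 libraries per genotype and the table term, this model leaves almost no residual spread for a single gene. Each SE and p at 72 h therefore rests largely on variances moderated over all genes, not on the gene's own replicates. No gene of the 12488 passed an adjusted p of 0.05 (background 0% called), and the smallest adjusted p was 0.106. At an unadjusted p under 0.05, 8 of the 12 mitochondrial genes were higher in the libraries labelled cKO and 0 lower, against 10.3% of all genes higher and 6.99% lower. Without the 5 genes with near-complete copies, 5 of the remaining 8 were higher and 0 lower. Mitochondrial mRNAs are cut from shared transcripts and were read in the same libraries, so these genes are not independent hits. Of the 81 nuclear genes 8 were higher and 0 lower at that threshold, a share near the background. Without the table term, 0 of the 12 mitochondrial and 2 of the 81 nuclear genes were higher at that threshold and 0 lower. Of all 12488 genes, 658 were then higher and 462 lower. With each library centred on its median, 5 mitochondrial and 3 nuclear genes were higher and 1 nuclear gene lower. Of all genes, 886 were then higher and 1243 lower. The median log2 fold change of the 12 mitochondrial genes was 0.68, with 12 of 12 positive, that of the 81 nuclear genes 0.12, with 62 positive, and that of all genes 0.08, with 61% positive. The difference between the median of the mitochondrial genes and that of the nuclear genes was not tested.

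The mitochondrial difference was larger in the pair that holds Het 1. In that pair the median over the 12 genes was 1.03, against 0.39 in the pair of cKO 4 and Het 3, on the log2(FPKM + 1) scale. The nuclear medians over the 82 genes with a mean of 1 FPKM over all 6 libraries were 0.08 and 0.17, and those over all genes 0.06 and 0.08. In both 72 h pairs 11 of 12 mitochondrial genes had the higher value in the library labelled cKO, against 42.4% of all genes. The exception was mt-Co3. For nuclear genes it was 44 of 81, and lower in both pairs were 7 nuclear and 0 mitochondrial genes, against 24.6% of all genes. Without the 5 genes with near-complete copies, the medians of the remaining 8 were 1.08 and 0.34.

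Among mitochondrial complex I genes, mt-Nd2, a membrane subunit of the proton-pumping arm, had 747 FPKM in cKO 2 and 441 in cKO 4, against 341 in Het 1 and 327 in Het 3 at 72 h. The neighbouring pump subunit mt-Nd4 had 659 and 339 FPKM in cKO 2 and cKO 4, against 305 and 255 in Het 1 and Het 3. For both genes the library labelled cKO was the higher in both pairs. The log2 fold change was 0.78 ± 0.21 (SE) for mt-Nd2 with limma adjusted p = 0.23 and 0.76 ± 0.21 for mt-Nd4 with limma adjusted p = 0.234. The pump subunit mt-Nd5 had 901 and 575 FPKM in cKO 2 and cKO 4, against 433 and 482 in Het 1 and Het 3, with a log2 fold change of 0.66. Its antisense neighbour mt-Nd6 had 556 and 305 FPKM, against 274 and 234, with a log2 fold change of 0.70. The subunit at the ubiquinone site, mt-Nd1, had 1583 and 729 FPKM in cKO 2 and cKO 4, against 790.4 and 697 in Het 1 and Het 3. Here too both pairs were higher in the library labelled cKO, but by 1.001 in the pair with Het 1 and 0.06 in the other on the log2(FPKM + 1) scale.

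In complex III, mt-Cytb, the cytochrome b that holds both quinone sites, had 2141 and 1291 FPKM in cKO 2 and cKO 4, against 977 and 1056 in Het 1 and Het 3 at 72 h (log2 fold change 0.71 ± 0.25 SE, limma adjusted p = 0.282). In complex IV, mt-Co1, which carries the site of oxygen reduction, had 3938 and 3038 FPKM in cKO 2 and cKO 4, against 2666 and 2920 in Het 1 and Het 3. In both genes the library labelled cKO was higher in both pairs, by a narrow margin in the pair of cKO 4 and Het 3 for mt-Co1. The log2 difference of mt-Co1 was 0.56 in the pair with Het 1 and 0.06 in the other. The complex V gene mt-Atp8, a small membrane subunit, had 17.5 and 25.03 FPKM in cKO 2 and cKO 4, against 6.56 and 18.7 in Het 1 and Het 3, and its log2 fold change was 0.84 ± 0.26 with limma adjusted p = 0.253. The proton channel subunit mt-Atp6 had 10.3 and 1.34 FPKM, against 4.49 and 0.543. Both were higher in the library labelled cKO in both pairs.

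Some values of the low genes rest on few estimated fragments, for mt-Atp6 168 and 15 in cKO 2 and cKO 4 against 64 and 9 in Het 1 and Het 3. mt-Co2, which takes electrons from cytochrome c, had 1.59 and 6.31 FPKM in cKO 2 and cKO 4, against 0.489 and 4.21 in Het 1 and Het 3, or about 26 and 71 against 7 and 70 fragments. mt-Nd3 had 43.3 and 2.97 FPKM, against 28.8 and 2.13, or about 360 and 17 against 210 and 18 fragments, and thus differed far more between the 2 tables than between the genotypes. mt-Co3 had 1.02 and 1.47 FPKM, against 1.10 and 0.892, on 17 to 19 fragments. Its order differed between the pairs.

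**Figure D3:**
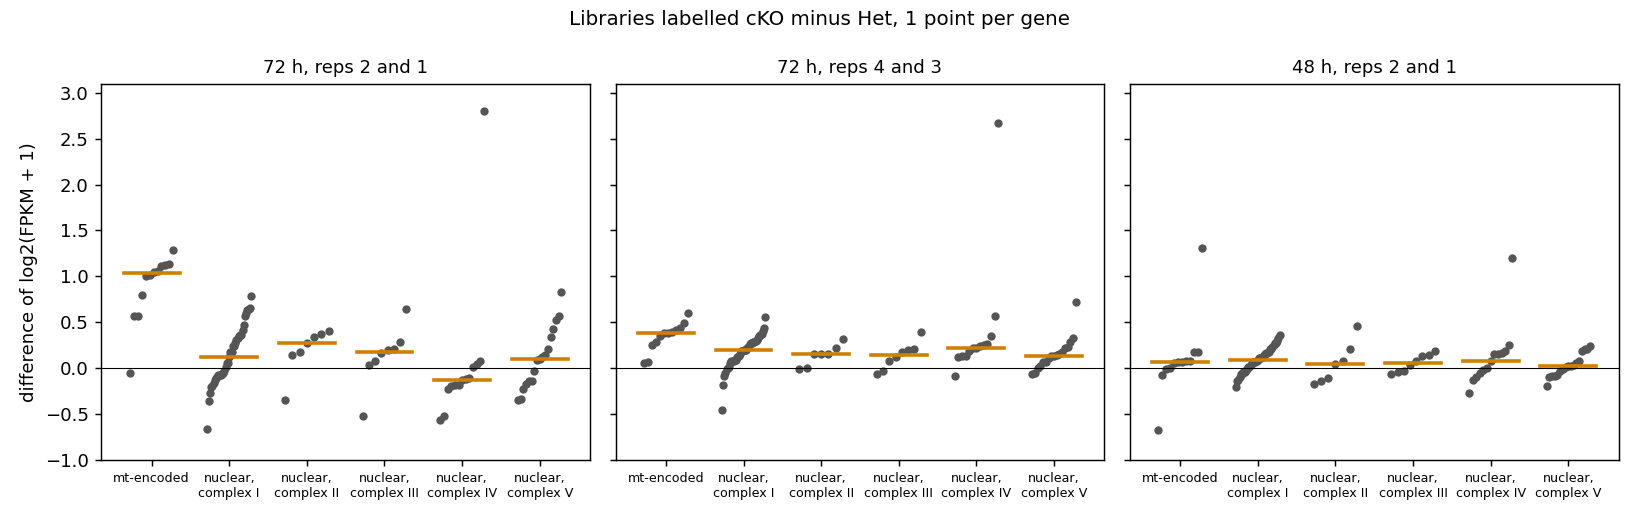
Difference of log2(FPKM + 1), library labelled cKO minus library labelled Het, in each of the 3 pairs, 1 point per gene with a mean of 1 FPKM, orange lines at the medians. The mitochondrial median is 1.03 and 0.39 in the 72 h pairs and 0.06 at 48 h, and the point above 2.5 in nuclear complex IV at 72 h is Cox6b2.

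Nuclear genes of complex I, the NADH dehydrogenase, had a median log2 fold change of 0.19 at 72 h over 37 genes tested, 29 of them positive, against 61% of all genes. Ndufa5, an accessory subunit, had 115 and 49.7 FPKM in cKO 2 and cKO 4, against 66.3 and 40.3 in Het 1 and Het 3 (log2 fold change 0.54 ± 0.17 SE, limma adjusted p = 0.264). Ndufb6, an accessory subunit of the membrane arm, had 69.6 and 36.3 FPKM, against 43.8 and 27.9 (0.51 ± 0.14 SE, limma adjusted p = 0.233). Both were higher in the library labelled cKO in both pairs, with the larger difference in the pair with Het 1. Ndufv3, an accessory subunit of the NADH-oxidising module, had the lowest log2 fold change among the nuclear genes of this complex with at least 5 FPKM. It had 125 and 79.4 FPKM in cKO 2 and cKO 4, against 199 and 90.5 in Het 1 and Het 3 (-0.42 ± 0.17 SE, limma adjusted p = 0.318). It was lower in the library labelled cKO in all 3 pairs. Ndufb11, of the membrane arm, differed by -0.11 ± 0.13 (SE), and Ndufa3, with the highest level of the complex, had 201 and 110.5 FPKM against 258 and 89.2, in opposite order in the 2 pairs.

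Complex II, the succinate dehydrogenase, has no mitochondrial gene and had a median log2 fold change of 0.18 over 6 genes tested. Sdha, the flavoprotein that oxidises succinate, had 456 and 381 FPKM in cKO 2 and cKO 4, against 343 and 306 in Het 1 and Het 3 (0.36 ± 0.12 SE, limma adjusted p = 0.273). Both 72 h pairs had their higher value in the library labelled cKO, whereas at 48 h cKO 2 had 457 and Het 1 503 FPKM. The factor that adds flavin to Sdha, Sdhaf2, had 16.1 and 16.6 FPKM against 12.5 and 14.8. The membrane anchor Sdhd had 69.5 and 54.2 FPKM against 61.6 and 54.7, in opposite order in the 2 pairs. Sdhaf4, an assembly factor, had 7.17 and 4.82 FPKM against 9.38 and 4.001, in opposite order in the 2 pairs. Sdhaf1, which acts in the assembly of the iron-sulfur subunit Sdhb, stayed below a mean of 1 FPKM over all libraries, and Sdhaf3, of the same step, reached it only when the 48 h libraries were counted.

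Complex III genes had a median of 0.14 over 8 genes. Uqcrb, the ubiquinone-binding protein, had 91.2 and 31.4 FPKM in cKO 2 and cKO 4, against 58.2 and 27.0 in Het 1 and Het 3 (0.42 ± 0.16 SE, limma adjusted p = 0.307). Uqcr10, a small subunit, had 233 and 114 FPKM against 202 and 86.9 (0.30 ± 0.13 SE). Both were higher in the library labelled cKO in both pairs. Uqcrh, the hinge protein between cytochromes c and c1, had 181 and 124 FPKM against 260.4 and 117, and Uqcrfs1, the Rieske iron-sulfur protein, had 74.8 and 54.3 against 73.2 and 56.7. Both differed in opposite directions in the 2 pairs.

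Complex V, the ATP synthase, had a median of 0.07 over 17 genes. Atp5b, the catalytic beta subunit and the most abundant nuclear gene of the set, had 1396 and 863 FPKM in cKO 2 and cKO 4, against 973 and 786 in Het 1 and Het 3 (0.33 ± 0.16 SE, limma adjusted p = 0.367). Atp5g1, one of the genes for the proton-carrying c subunit, had 38.5 and 15.4 FPKM against 21.3 and 12.001 (0.58 ± 0.18 SE, limma adjusted p = 0.253). In both genes the library labelled cKO was higher in both pairs. Its paralogs Atp5g2 and Atp5g3 make the same mature c subunit, and Atp5g1 gave 4.75% and 3.16% of the summed FPKM of these genes in cKO 2 and cKO 4, against 3.11% and 2.75% in Het 1 and Het 3. Atp5d, the delta subunit of the catalytic head, had 188 and 169.9 FPKM against 238 and 169.4. Atp5mpl, a small membrane protein of the enzyme, had 199 and 77.4 FPKM against 233 and 81.1 and was the lower in the library labelled cKO in both pairs.

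Nuclear complex IV genes, of cytochrome c oxidase, were divided by pair. Their median was -0.13 in the pair with Het 1, with 9 of 13 genes lower in cKO 2 against 43.9% of all genes, and 0.22 in the pair of cKO 4 and Het 3, with 12 of 13 higher in cKO 4 against 62.1% of all genes. Over both pairs it was 0.03. In both pairs the catalytic core gene mt-Co1 had its higher value in the library labelled cKO. Cox6a1, the most abundant of the nuclear genes of this complex, had 519 and 363 FPKM in cKO 2 and cKO 4, against 567 and 332 in Het 1 and Het 3. Cox7a2l, known for its part in respiratory supercomplexes, had 103 and 101 FPKM against 149 and 108 and differed by -0.31 ± 0.16 (SE, limma adjusted p = 0.401). Cox7b had 189.7 and 94.5 FPKM against 179.7 and 80.8, and Cox6c, another small subunit, had 121 and 77.5 against 139 and 70.5.

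One nuclear gene stood outside the range of the others. Cox6b2 is the isoform of subunit 6B known from testis, while Cox6b1 is the general isoform, and the subunit sits at the contact of the oxidase dimer. Cox6b2 had 105 and 49.5 FPKM in cKO 2 and cKO 4, against 14.3 and 6.94 in Het 1 and Het 3 at 72 h, and 27.6 in cKO 2 against 11.5 in Het 1 at 48 h. All 3 pairs had their higher value in the library labelled cKO, by 2.80 and 2.67 on the log2(FPKM + 1) scale in the 72 h pairs and by 1.19 at 48 h. Its log2 fold change of 2.73 ± 0.13 (SE) at 72 h had a limma adjusted p of 0.106, short of the threshold. That is the smallest adjusted p, which 91 of the 12488 genes share. Among them are Gzma, from the CD8 T and NK cell list, and Ltf, from the neutrophil and myeloid list. Over its alternatives the adjusted p ranged from 0.0466 to 0.235, and it passed only with no filter on low values, when it was the 1 member called, as were 0.0285% of all genes (8 of 28080). Cox6b1 had 266 and 155 FPKM in cKO 2 and cKO 4, against 303 and 131 in Het 1 and Het 3, a log2 fold change of 0.03. Cox6b2 made up 28.4% and 24.2% of the summed FPKM of both isoforms in cKO 2 and cKO 4, against 4.51% and 5.02% in Het 1 and Het 3 at 72 h, and 9.63% in cKO 2 against 4.25% in Het 1 at 48 h. No annotated gene overlaps Cox6b2. The promoter windows of both isoforms, 250 bases before to 50 after the start in RefSeq GRCm38.p6, are shown because the pair differs. They lie at chr7:4753045-4753344 (minus strand, Cox6b2) and chr7:30626065-30626364 (minus strand, Cox6b1). Capitals mark a match to the ETS family motif CCGGAAG, here on the opposite strand.
Cox6b2: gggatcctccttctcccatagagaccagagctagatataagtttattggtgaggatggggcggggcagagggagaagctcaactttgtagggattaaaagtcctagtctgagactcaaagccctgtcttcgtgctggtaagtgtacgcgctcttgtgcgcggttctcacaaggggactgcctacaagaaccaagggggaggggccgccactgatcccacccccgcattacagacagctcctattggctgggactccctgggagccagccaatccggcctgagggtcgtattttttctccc
Cox6b1: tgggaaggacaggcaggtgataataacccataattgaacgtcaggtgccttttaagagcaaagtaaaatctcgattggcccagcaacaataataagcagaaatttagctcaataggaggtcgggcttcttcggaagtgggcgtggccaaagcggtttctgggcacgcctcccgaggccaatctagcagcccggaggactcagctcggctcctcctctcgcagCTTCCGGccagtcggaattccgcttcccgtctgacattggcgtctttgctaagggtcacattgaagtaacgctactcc
The Cox6b2 window holds none of the 3 motifs searched, which says only that these letters are not in it.

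**Figure D4:**
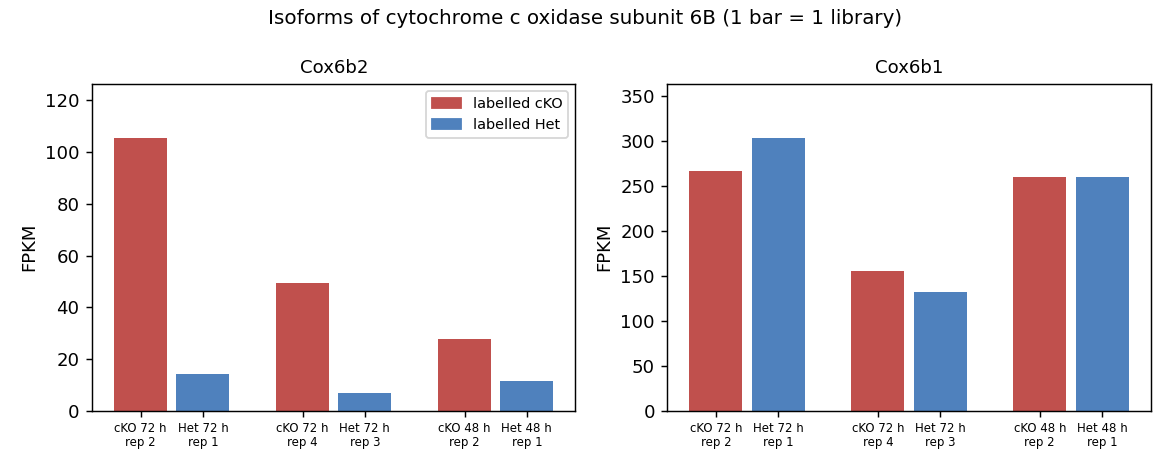
FPKM of Cox6b2 (left) and Cox6b1 (right), 1 bar per library, red labelled cKO and blue labelled Het. Cox6b2 is 105, 49.5 and 27.6 FPKM in the libraries labelled cKO against 14.3, 6.94 and 11.5 in those labelled Het, while Cox6b1 is higher in cKO 4 and lower in cKO 2 than in the paired library at 72 h.

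Other isoforms of restricted tissues were at or near the bottom of the range. Cox7b2 and Cox8c, known from testis, were at 0 in all 6 libraries. Cox4i2, known from lung, had at most 0.608 FPKM, Cox6a2 and Cox8b, known from striated muscle, at most 0.326 and 0.123 FPKM, and Ndufa4l2, known from hypoxic cells, at most 0.139 FPKM. The muscle isoform Cox7a1 was measured at 7.82 and 5.01 FPKM in cKO 2 and cKO 4, against 12.1 and 3.05 in Het 1 and Het 3, or 1.90% to 4.33% of the summed FPKM of Cox7a1, Cox7a2 and Cox7a2l over the 72 h libraries. The general isoforms Cox4i1, Cox7a2 and Cox8a had log2 fold changes of 0.00, 0.04 and -0.01 at 72 h, from pairs of opposite sign. In the pair with Het 1 they differed by -0.12, -0.18 and -0.23, and in that of cKO 4 and Het 3 by 0.12, 0.26 and 0.22. Ndufa4 is now counted among the subunits of complex IV, but by its symbol it was grouped here with complex I. It had 186 and 92.8 FPKM against 119 and 75.9, and differed by 0.46 ± 0.15 (SE, limma adjusted p = 0.264).

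At 48 h, with 1 library per genotype and so no test, both genomes had near-equal medians. The median log2 difference, cKO 2 minus Het 1, was 0.06 over the 12 mitochondrial genes and 0.06 over the 82 nuclear ones, against -0.004 over all 12394 genes. It was above 0 in 9 of 12 mitochondrial and 53 of 82 nuclear genes, against 49.2% of all genes. The 7 abundant mitochondrial genes differed by at most 0.17. mt-Cytb had 2363 FPKM in both libraries, and mt-Nd1 had 1705 in cKO 2 against 1722 in Het 1. Differences of 2-fold or more on this scale, met by 1.11% of all genes in the higher direction, were found for mt-Atp8, with 42.9 FPKM in cKO 2 against 16.7 in Het 1, and for Cox6b2. In the lower direction, met by 0.799% of all genes, there was none. There mt-Nd3 had 20.4 FPKM in cKO 2 against 33.2 in Het 1.

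The time of activation was compared within the first table, 72 h against 48 h. In the libraries labelled cKO 8 of 12 mitochondrial genes were lower at 72 h, where 44.9% of all genes were lower, with a median log2 difference of -0.06. In those labelled Het all 12 were lower, where 52.9% of all genes were lower, with a median of -0.93. Nuclear medians were -0.01 between the libraries labelled cKO, with 42 of 82 lower, and -0.07 between those labelled Het, with 46 of 82 lower. Lower at 72 h in both genotypes were 8 of 12 mitochondrial and 28 of 82 nuclear genes, against 26.6% of all genes, and higher in both were 0 and 22, against 28.7%. mt-Cytb had 2141 FPKM at 72 h against 2363 at 48 h in cKO 2, and 977 against 2363 in Het 1. mt-Nd2 had 747 FPKM at 72 h against 765 at 48 h in cKO 2, and 341 against 735 in Het 1. Within the first table, the values of Het 1 at 72 h were thus the low ones of both genes. Nuclear complex IV genes had a median of 0.04 in cKO 2 and of 0.21 in Het 1, where 12 of 13 were higher at 72 h against 47% of all genes. Of the 13 genes 7 were higher at 72 h in both genotypes and 0 lower in both. Uqcrh had 181 FPKM at 72 h against 163 at 48 h in cKO 2, and 260.4 against 167 in Het 1.

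Over both genotypes (limma, 6 libraries fitted) no OXPHOS gene passed an adjusted p of 0.05 for time, as 0.0242% of 12394 genes did. With the table term the time estimate rests on the first table, since the other has no 48 h library. Its mitochondrial median stayed at -0.43 without cKO 4 or Het 3. At an unadjusted p under 0.05, 0 mitochondrial and 4 nuclear genes were higher at 72 h, against 6.45% of all genes, and 2 mitochondrial (mt-Atp8, mt-Co2) and 5 nuclear genes lower, against 4.63%. The median log2 fold change was -0.43 for the mitochondrial genes, -0.03 for the nuclear genes and 0.00 for all. Without the table term it was -0.77 for the mitochondrial and -0.344 for the nuclear genes, with 0 higher and 14 lower at an unadjusted p under 0.05. Of all 12394 genes, 1087 were then higher and 791 lower. The mitochondrial median was -0.855 without cKO 2 at 72 h and -0.78 without cKO 2 at 48 h, but -0.10 without Het 1 at 72 h and -0.21 without Het 1 at 48 h. A test of whether the genotype difference changed with time (interaction term, limma) called 0 of 12394 genes (background 0%), with 1 mitochondrial and 1 nuclear OXPHOS gene at an unadjusted p under 0.05 in the higher direction, against 3.43% of all genes, and 0 in the lower, against 2.28%. These were mt-Nd3 (1.13, limma adjusted p = 0.745) and Cox6b2 (1.54, limma adjusted p = 0.742), and the median of the 12 mitochondrial genes was 0.59. That median was 0.26 without cKO 2 or Het 1 at 72 h and 0.97 without cKO 4 or Het 3, values that have no test. The 72 h and 48 h comparisons of the first table share libraries with the genotype comparison, so the time and genotype values of Het 1 at 72 h are not independent.

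**Figure D5:**
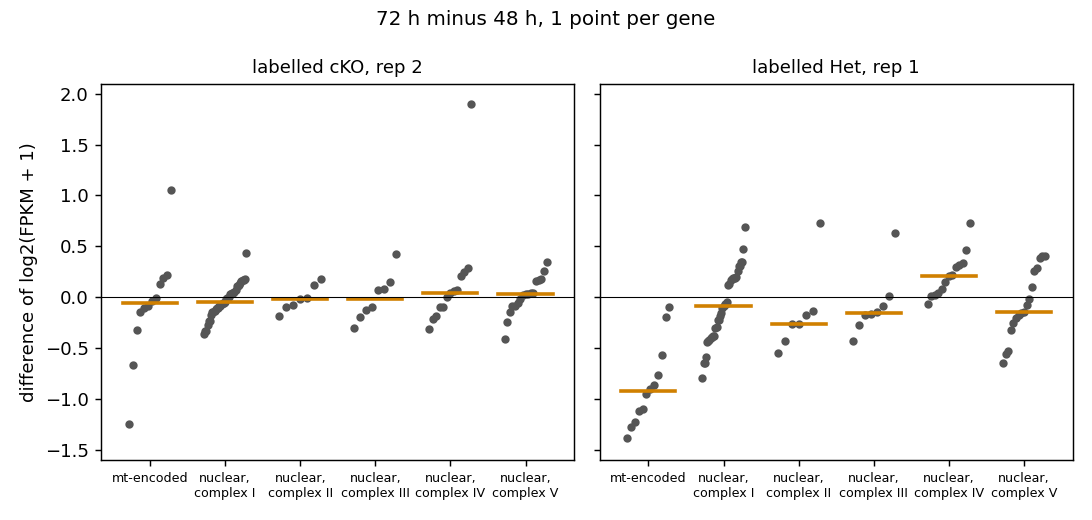
Difference of log2(FPKM + 1), 72 h minus 48 h, in the libraries labelled cKO (replicate 2, left) and Het (replicate 1, right), 1 point per gene with a mean of 1 FPKM, orange lines at the medians. The mitochondrial median is -0.06 in the library labelled cKO and -0.93 in that labelled Het, and in the right panel nuclear complex IV lies at 0.21.

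A model of genotype over both times, with 3 libraries per genotype, called 0 of 12394 genes (limma, background 0%). At an unadjusted p under 0.05 it had 2 mitochondrial and 6 nuclear OXPHOS genes higher in the libraries labelled cKO and 0 lower, against 8.04% of all genes higher and 5.28% lower. The median log2 fold change was 0.47 over the 12 mitochondrial genes and 0.13 over the 82 nuclear ones, against 0.05 over all genes. The mitochondrial median was 0.23 without either cKO 2 or Het 1 at 72 h. In all 3 pairs 8 of 12 mitochondrial and 32 of 82 nuclear genes were higher in the library labelled cKO, against 23.5% of all genes. Lower in all 3 were 0 mitochondrial and 4 nuclear genes, against 14.7%.

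Genes that build the complexes or express the mitochondrial genome were read from 9 lists outside the 102 genes. For the genotype at 72 h no gene of these lists passed an adjusted p of 0.05. Their counts stand against 61% of all genes positive and, at an unadjusted p under 0.05, 10.3% higher and 6.99% lower. The median log2 fold changes were 0.26 for 17 complex I assembly factors (14 positive, 4 at an unadjusted p under 0.05), 0.27 for 6 of complex III (5 positive, 0 at that p), 0.23 for 21 of complex IV (14 positive, 2 higher and 1 lower) and 0.24 for 5 of complex V (5 positive, 1). They were 0.29 for 13 genes of ubiquinone synthesis and cytochrome c outside the rule (13 positive, 2), 0.21 for 15 of mitochondrial DNA replication and transcription (11 positive, 1), 0.30 for 21 of mitochondrial RNA processing (19 positive, 1 higher and 1 lower) and 0.30 for 11 translation factors (9 positive, 0). For 10 regulators of nuclear OXPHOS genes the median was -0.12, with 2 positive and 0 at that p. All but the last lay above the 0.08 of all genes. By pair, the median in the pair with Het 1 and in that of cKO 4 and Het 3 was 0.24 and -0.01 for replication and transcription, 0.40 and 0.01 for RNA processing, 0.39 and 0.15 for translation factors and 0.03 and -0.205 for the regulators. It was 0.32 and 0.17 for complex I assembly, 0.29 and 0.24 for complex III, 0.26 and 0.12 for complex IV, 0.205 and 0.28 for complex V, and 0.46 and 0.26 for ubiquinone synthesis and cytochrome c. The values for replication and transcription and for RNA processing were thus near 0 outside the pair with Het 1, and those for the regulators differed in sign between the pairs.

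Named examples varied within these lists. Ndufaf2, an assembly factor of complex I, had 27.2 and 12.6 FPKM in cKO 2 and cKO 4, against 11.5 and 7.09 in Het 1 and Het 3 at 72 h (0.96 ± 0.17 SE, limma adjusted p = 0.153). Nubpl, which delivers iron-sulfur clusters to complex I, had 6.75 and 3.13 FPKM against 3.28 and 0.841 (1.01 ± 0.20 SE, limma adjusted p = 0.17). Both were higher in the library labelled cKO in both pairs. Among genes that act on mitochondrial nucleic acids, Top1mt, the mitochondrial topoisomerase, had 6.67 and 2.75 FPKM against 1.78 and 1.36 (1.06 ± 0.28 SE, limma adjusted p = 0.22). Fastkd2, an RNA-binding protein of mitochondrial RNA granules, had 10.0 and 5.21 FPKM against 4.25 and 3.43 (0.78 ± 0.22 SE, limma adjusted p = 0.232). Rexo2, which degrades short RNAs, was lower in the library labelled cKO in both pairs, with 175 and 179 FPKM against 251 and 247.5 (-0.49 ± 0.12 SE, limma adjusted p = 0.207). Tfam, which packages and transcribes mitochondrial DNA, had 41.6 and 33.0 FPKM in cKO 2 and cKO 4, against 41.4 and 41.6 in Het 1 and Het 3, a log2 fold change of -0.16. The other named genes are given by log2 fold change. In complex I assembly Ndufaf3 had -0.22 and Dmac1 -0.06, and in that of complex III Lyrm7 0.67, Bcs1l 0.39 and Uqcc2 -0.22. For complex IV Coa7 had 0.51, Taco1 0.47, Cmc1 -0.37 and Cox20 -0.50, and for complex V Atpaf2 0.36 and Tmem70 0.31. Ssbp1 had 0.31, Mterf1a -0.22, Slirp 0.35 and Trmt10c -0.01. The translation factors Mtif2 and Mrrf had 0.38 and 0.41, and Mtrf1l and Oxa1l -0.16 and -0.03.

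The genomes differ in base composition, with overlapping ranges. The mitochondrial genes hold 31.9% to 41.1% G and C, and the nuclear members 36.7% to 60.9% with a median of 50.5%. For the 834 nuclear genes within the mitochondrial range, the median log2 difference, cKO minus Het, was 0.13 in the pair with Het 1 and 0.08 in the pair of cKO 4 and Het 3 at 72 h, and -0.11 at 48 h. The mitochondrial medians in the same pairs were 1.03, 0.39 and 0.06. The part of base composition in them was not tested. Within the 82 nuclear members, the rank correlation across genes of G and C content with the 72 h minus 48 h difference was -0.46 in the library labelled cKO and 0.17 in that labelled Het, against -0.31 and 0.09 across all genes. It is given as a description, since the genes share the same libraries.

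Promoter windows were found in RefSeq GRCm38.p6 for 73 of the 89 nuclear genes, and 3 motifs of known regulators of OXPHOS genes were searched on both strands. The NRF1 motif matched in 19 of the 73 genes, or 26%, against 5.19% of 27025 genes. The ETS family motif (CCGGAAG), which GABPA binds, matched in 19 genes, or 26%, against 9.93%, and YY1 (AAGATGGCG) in 7 genes, or 9.59%, against 1.64%. The end of the ETS motif and the start of the YY1 motif share letters, so that matches can overlap, and a match is a description of the window. At 72 h the median log2 fold change was 0.07 over 18 tested genes with the NRF1 motif and 0.13 over 51 without, 0.03 over 17 with the ETS motif and 0.14 over 52 without, and 0.20 over 7 with YY1 and 0.10 over 62 without. Ndufa5 has overlapping windows at chr6:24527477-24527776 and chr6:24527641-24527940 (minus strand), which hold the same NRF1 match at different distances from their starts. The first is shown, with the NRF1 match in capitals, since Ndufa5 is the nuclear complex I gene with the highest log2 fold change among those of at least 5 FPKM.
Ndufa5: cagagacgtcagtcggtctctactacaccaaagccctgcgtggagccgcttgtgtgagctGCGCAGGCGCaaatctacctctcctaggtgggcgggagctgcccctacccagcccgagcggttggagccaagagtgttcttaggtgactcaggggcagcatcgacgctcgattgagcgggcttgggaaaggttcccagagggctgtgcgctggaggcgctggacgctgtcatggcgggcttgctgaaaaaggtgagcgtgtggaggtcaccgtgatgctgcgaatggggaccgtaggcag
It has 1 such match, in a gene whose difference of 0.54 lies above the median of either group of windows.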

How the data were processed

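Per the labels' protocols, the 6 RNA libraries were prepared with a SMART-Seq v4 low-input kit. The submitters' processing notes name TopHat2 2.0.12, Bowtie2 2.2.3, HTSeq 0.6.1 and the build mm9. The sources used here give no settings, annotation or strandedness. The authors deposited FPKM in 2 tables with 47347 shared rows, 47069 of them with an Ensembl gene ID. The members and gene lists were chosen with earlier results of these data known.

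Values were analysed as log2(FPKM + 1), which understates changes of low genes. Genes averaging 1 FPKM or more in the fitted libraries were tested with limma 3.58.1 in R 4.3.3 (moderated variances with a trend, table as a term, Benjamini-Hochberg adjustment over all genes). The models were tested on simulated data. At 48 h, ratios are given with no test. Named were, of each complex, the 2 highest and 2 lowest log2 fold changes at 72 h and the highest level among genes of at least 5 FPKM, with all mitochondrial genes and all isoforms of subunits. Of each list of assembly factors or of mitochondrial gene expression, up to 2 genes per direction with the smallest p at 72 h were named.

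Depth was estimated from the steps of low values: with mean annotated transcript length, 85.9% to 86.8% of them came within 0.02 of whole fragments (3.17% to 3.52% with lengths shuffled). It served for the fragment numbers only, which cover counting error alone. Gene names, overlaps and shared stretches came from GENCODE and RefSeq for GRCm38, another build than the authors', so positions are from that reference. Alternatives covered the pseudocount (0.1, 5), the filter, scaling, the variance trend, the table term, each library left out and the replicate number as a block. Summaries used Python 3.11.15, pandas 2.3.3, numpy 2.4.6 and matplotlib 3.10.9.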

Additional observations from a re-analysis of the deposited data

How the results depend on the processing

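The mitochondrial medians kept their sign under all alternatives run for the genotype at 72 h, over both times and at 48 h and for time. With no filter on low values, the count of OXPHOS genes past an adjusted p of 0.05 at 72 h was 1 (Cox6b2) in place of 0, and that of all genes 8 of 28080 in place of 0 of 12488. Centring each library on its median, which removes the all-gene median of 0.08 at 72 h, left nuclear medians of 0.0317 at 72 h and 0.0647 over both times. Without the table term the medians for time were -0.77 (mitochondrial) and -0.344 (nuclear). At an unadjusted p under 0.05, 0 OXPHOS genes were then higher and 14 lower in place of 4 and 7. All genes had 1087 higher and 791 lower in place of 800 and 574. For the genotype at 72 h without that term, 2 OXPHOS genes were higher and 0 lower in place of 16 and 0. All genes had 658 and 462 in place of 1286 and 873. Centring left 8 OXPHOS genes higher and 1 lower for the genotype at 72 h, and 886 and 1243 of all genes. Without mt-Co1, the log2 ratio of mitochondrial to nuclear sums at 48 h, cKO over Het, was -0.0111 in place of 0.0051. The causes were not tested.

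Leaving out each library gave mitochondrial medians of 0.39 to 1.03 and nuclear medians of 0.08 to 0.17 at 72 h, where each value is that of the pair left and has no test. It gave 0.23 to 0.68 and 0.10 to 0.12 over both times, and -0.855 to -0.10 and -0.07 to -0.01 for time, with 0 OXPHOS genes past the threshold each time. Of all genes, 7 passed over both times without cKO 4 or Het 3 and 0 otherwise, and for time 4 passed without cKO 2 at 72 h, 1 without Het 1 at 72 h, 2 without cKO 4 or Het 3 and 0 without either 48 h library, in place of 3. For time, 9 OXPHOS genes were higher and 24 lower at an unadjusted p under 0.05 without cKO 2 at 72 h. Of all 12381 genes in that fit, 1255 were higher and 1185 lower. The interaction without single 72 h libraries has values only, with no residual spread for a test, and could not be fitted without a 48 h library. With the replicate number as a block, time had 0 OXPHOS genes past the threshold, medians of -0.43 and -0.03, and 1 higher and 2 lower at an unadjusted p under 0.05 in place of 4 and 7. All genes had 635 higher and 349 lower in place of 800 and 574. Numbers 1 and 2 are shared by 72 h and 48 h, but each belongs to 1 genotype, and with 1 library per genotype at 48 h it could not be checked whether they pair the libraries.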

Other observations

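Beyond the protein genes, the tables hold 24 rows of the mitochondrial genome. Of the 22 tRNA rows 21 were at 0 in all 6 libraries, and mt-Tp, the proline tRNA, had 492 and 202 FPKM in cKO 2 and cKO 4, against 260.3 and 131 in Het 1 and Het 3 at 72 h, and 281.5 in cKO 2 against 273 in Het 1 at 48 h. The small ribosomal RNA mt-Rnr1 had 278 FPKM in cKO 2 and 8.27 in cKO 4, against 326.5 in Het 1 and 224 in Het 3 at 72 h, and 225 in cKO 2 against 184.5 in Het 1 at 48 h. The large ribosomal RNA mt-Rnr2 had 282 FPKM in cKO 2 and 5.88 in cKO 4, against 239 in Het 1 and 219.5 in Het 3 at 72 h, and 257.5 in cKO 2 against 233.5 in Het 1 at 48 h. The library cKO 4 thus stood apart for both ribosomal RNAs, while its mitochondrial protein genes summed to 6756 FPKM against 5998 in Het 3.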
